A study of Rattus norvegicus with 8 samples.

Results

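The cytosolic ribosomal protein genes of the rat abdominal aorta were followed in 8 RNA libraries, 4 made after perivascular iron chloride (FeCl3) and 4 after saline. Members were the genes of the deposited expression table whose symbol begins with Rpl or Rps and a digit, with Rplp0, Rplp1, Rplp2 and Rpsa. The Rps6k kinases and Rps19bp1 share the prefix but encode no ribosomal protein and were dropped. The rule found 96 genes among 18090. Of these, 41 encode proteins of the large subunit, 31 proteins of the small subunit and 3 the acidic stalk proteins. The other 21 have a like name, as gene copies, tissue forms or other relatives, and are called copies and paralogues below.

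All animals were wild type. In the FeCl3 group, filter paper with 10% FeCl3 lay against the outside of the vessel for 5 min, a standard way to start an occluding thrombus, and in the control group the paper carried 0.9% saline for the same time. The submitters count the 4 replicates of a group as biologically independent, and their labels put all 8 samples in batch 1. Strain, age, sex, harvest time and whether the thrombus was removed are not given in the sources used here. Libraries were made from polyA RNA, and the authors deposited 1 FPKM value per gene and library, which is its fragment count divided by its length and by the library total.

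The ribosome reads messenger RNA with its small subunit and joins amino acids with its large subunit, and each subunit is a fixed assembly of proteins on ribosomal RNA. Because nearly every protein is needed in equal number, the genes are known for being expressed together and in balance. Their messengers start with a cytosine and a run of pyrimidines, the 5′ terminal oligopyrimidine or TOP motif, through which the RNA-binding protein Larp1 and the kinase complex mTORC1 set how actively they are translated. Many members also have processed pseudogenes and near-identical copies, so reads can be shared between loci.

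Start sequences were available for 74 of the 96 members, all matched by gene ID, from the RefSeq promoter windows of the rat build GRCr8. A TOP start, taken here as a C at the annotated start followed by at least 4 further pyrimidines without a break, stood in 22 of the 74 (29.7%), against 722 of 27457 windows of all genes (2.63%). Each line below shows 12 bases before the annotated start and 18 from it, 5′ to 3′ on the gene's strand, with the unbroken run of C and T from the start in capitals. The first 5 are TOP starts of 2 stalk proteins and of 3 members whose FPKM did not overlap between the groups.
Rplp0 (chr12:46718373-46718402, minus strand): cgcaccgcacttCTCTCgccaggcgtcctc
Rplp1 (chr8:71290855-71290884, minus strand): ggcgcatgtgatCCTTTCCTCagctgccgc
Rpl10 (chrX:157205838-157205867, plus strand): gcgtgggagcgtCTCTTTTCCTCTggcgcg
Rps15 (chr7:10068098-10068127, minus strand): tgacaccgcttcCTTTTCCCagcagccgcc
Rps27 (chr2:177964589-177964618, minus strand): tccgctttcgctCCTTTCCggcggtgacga
The paralogue of Rps27 and both members of the Rpl36a pair had no TOP start, shown here because the pairs are compared below.
Rps27l (chr8:76443646-76443675, plus strand): tattcatttgtcattatttgtggtgtccag
Rpl36a (chrX:102059437-102059466, plus strand): cctataaacttcCgttgctgctctagcctc
Rpl36al (chr6:93392241-93392270, minus strand): gacttccgctccatccgtccctttcctgtt
In the last pair the canonical gene had a TOP start and the paralogue had none.
Rpl22 (chr5:168117949-168117978, plus strand): gtgcgcccccctCCCTTTCTgcctcctctg
Rpl22l1 (chr2:113683184-113683213, plus strand): ccgtggatatccggttccgagttgcgcagc
Rps24 and Rps4x came close, the first with a T at the annotated start and the second with a run too short by 1 base.
Rps24 (chr16:96505-96534, plus strand): gcggtcctctttTCCTCCTTTacagctcgg
Rps4x (chrX:71342904-71342933, minus strand): agcgcgcgcagcCTCCgaccctaatttctt
Of all genes with windows, 3251 had more than 1, and only the first listed was used. An annotated start can also lie some bases from the start used in the aorta, so these counts describe the annotation.

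Library totals ranged from 24304434 to 30283292 fragments. Smooth muscle markers were present in all libraries, so the defining genes of the labelled tissue were found. Blood genes differed widely. Haemoglobin genes took 24.7, 16.4, 34.1 and 19.95% of fragments in FeCl3 replicates 1 to 4, and 1.63, 1.30, 1.49 and 16.5% in saline replicates 1 to 4, so that saline replicate 4 stood with the FeCl3 libraries. FPKM divides by the total, so each library's other genes are lowered by the fragments that haemoglobin takes.

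As a share of all fragments, ribosomal protein genes were higher on average after FeCl3, but the 2 groups overlapped. They took 3.59, 6.93, 3.41 and 5.45% of fragments in FeCl3 replicates 1 to 4. After saline they took 2.44, 3.69, 2.47 and 2.98%. FeCl3 replicates 2 and 4 lay above every saline library, while FeCl3 replicates 1 and 3 lay just below saline replicate 2. The group means were 4.85 ± 1.67% and 2.89 ± 0.583% (SD, n = 4 each). Each share rests on at least 739400 fragments, so its exact binomial 95% interval is narrow (6.92 to 6.94% for FeCl3 replicate 2) and covers counting error only. In bulk tissue, more cells of a type rich in these messages and more of the messages per cell cannot be told apart.

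The difference depended on the denominator. Of fragments outside the haemoglobin genes, the members took 4.77, 8.29, 5.17 and 6.81% after FeCl3 and 2.48, 3.74, 2.51 and 3.56% after saline. On that base the groups did not overlap, with means of 6.26 ± 1.62% and 3.07 ± 0.670% (SD, n = 4 each). Of the summed FPKM, in which each gene is divided by its length, the share was 6.27, 13.2, 5.32 and 10.5% after FeCl3 and 8.13, 10.8, 8.34 and 6.65% after saline. On this base the groups were interleaved, with means of 8.81 ± 3.67% and 8.49 ± 1.73% (SD, n = 4 each). Haemoglobin accounted for 36.0 to 64.9% of that sum in FeCl3 libraries and for 4.58 to 43.6% in saline ones. With haemoglobin left out of that sum too, the means were 17.2 ± 3.39% and 10.2 ± 1.62% (SD, n = 4 each).

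**Figure D1:**
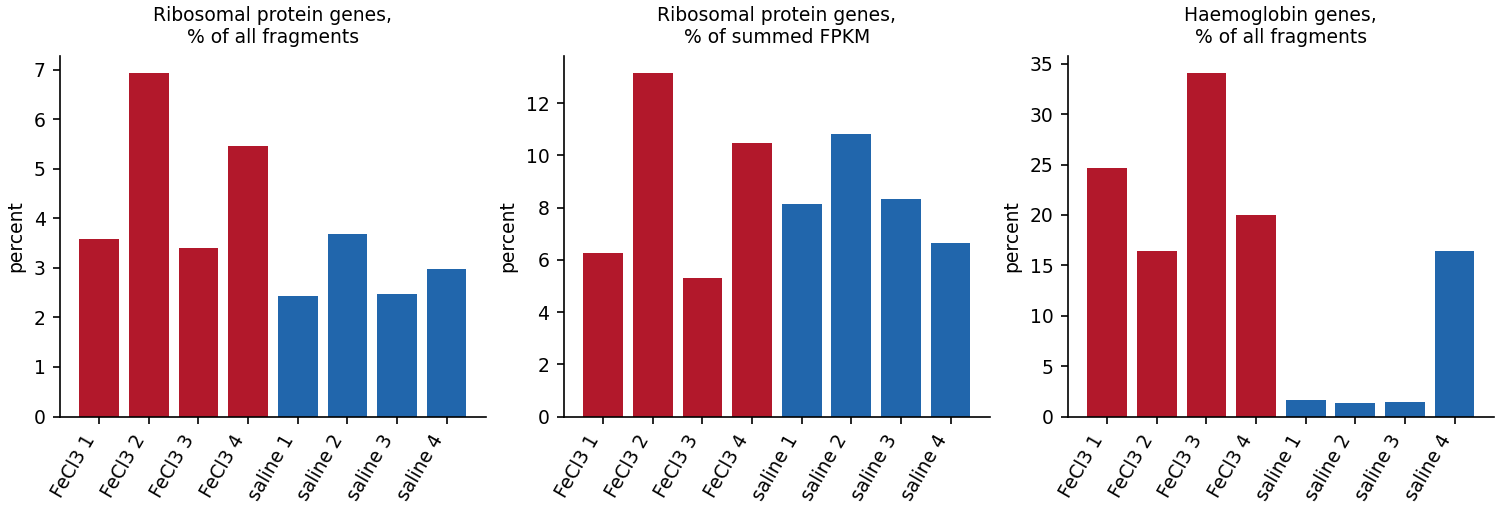
Share of the 96 ribosomal protein genes in each of the 8 libraries, in percent of all fragments (left) and of the summed FPKM (middle), with the haemoglobin genes' percent of fragments (right). Each bar is 1 library, red for FeCl3 and blue for saline. On fragments FeCl3 replicates 2 and 4 (6.93 and 5.45%) exceeded every saline library, on summed FPKM the groups were interleaved, and saline replicate 4 carried 16.5% haemoglobin.

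Within the FeCl3 group the haemoglobin share and the ribosomal share were in reverse order. In replicates 3, 1, 4 and 2, haemoglobin took 34.1, 24.7, 19.95 and 16.4% of fragments. Ribosomal protein genes took 3.41, 3.59, 5.45 and 6.93% there. Both are shares of the same total, so more haemoglobin fragments lower the other shares. Of fragments outside haemoglobin, the members took 5.17, 4.77, 6.81 and 8.29% in the same replicates, no longer in strict reverse order. What else set the order was not tested. Across the 2 groups the reverse order did not hold. FeCl3 replicate 2 and saline replicate 4 had nearly equal haemoglobin shares, 16.4 and 16.5%, with ribosomal shares of 6.93 and 2.98%. FeCl3 replicate 3 had the highest haemoglobin share of all and the lowest ribosomal share of the FeCl3 group. Other blood cell markers also differed between the groups. All 10 red cell markers tested had a positive log2 fold change, with summed FPKM of 1061 to 3913 after FeCl3 and 62.1 to 1661 after saline. For T and B lymphocyte markers it was 12 of 12, with sums of 61.2 to 516 and 0.303 to 107, and Cd3d, Cd3e and Cd2 were at 0 in saline replicate 1. For platelet markers it was 9 of 10 (1051 to 2732 and 40.2 to 1848), and for myeloid markers 12 of 12 (268 to 909 and 9.99 to 602). Smooth muscle markers went the other way, with 0 of 10 positive and sums of 3936 to 11248 after FeCl3 and 5334 to 27836 after saline. Schwann cell markers had 1 of 9 positive, with sums of 200.2 to 1056 after FeCl3 and 286 to 1611 after saline. Of the other cell types of the vessel wall and the fat around it, fibroblast, endothelial and adipocyte markers each had 8 of 10 positive with FPKM, and 7, 6 and 6 of 10 with TPM. Their sums overlapped between the groups, at 1702 to 5759 and 1986 to 5230 FPKM for fibroblasts, 211 to 292 and 26.4 to 307 for endothelium, and 498 to 12767 and 40.3 to 16336 for adipocytes. Saline replicate 1 had the lowest endothelial and adipocyte sums, with Cfd, Lep and Cidec at 0, and the lowest Dcn, at 14.4 FPKM against 52.2 or more in the other 7 libraries. What part these cells had in the ribosomal values was not tested.

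Gene by gene, 88 members reached at least 1 FPKM in at least 4 of the 8 libraries and entered a limma fit of log2(FPKM + 1) over 11921 genes. None of the 88 passed a Benjamini-Hochberg adjusted p of 0.05, and none of the 11921 did (background 0%). A limma voom fit of the fragments recovered from the FPKM also passed 0 of the 88, with 33 higher at an unadjusted p under 0.05 (background 4.33%). The members' adjusted p-values from limma ran from 0.248 to 0.911. The direction was nearly uniform on the deposited scale, with 86 of 88 log2 fold changes positive against a background of 29.8% of all genes, but only 32 of 88 were positive when each library's FPKM was rescaled to sum to the same total (TPM). The members' median log2 fold change was 0.65 with FPKM and -0.089 with TPM.

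All genes together moved with the scaling, so the members are best read against them. The median over all 11921 genes was -0.25 with FPKM and -0.90 with TPM, which puts the members' median 0.90 and 0.82 above it. That distance was 0.92 with median-of-ratios scaling, 0.94 with haemoglobin left out of the total and 0.56 with quantile normalization. In each of these 5 scalings 87 or 88 of the 88 members lay above the median gene. With FPKM, 86 of the 88 also lay above the upper quartile of all genes, which was at 0.086. The lists and members were chosen with earlier results known, so these counts are a description. By start site, the 22 tested members with a TOP start had a median log2 fold change of 0.71 with FPKM and -0.026 with TPM, and the 47 with another start 0.63 and -0.11. Among other genes, the medians were -0.19 and -0.82 for the 260 with a TOP start and -0.26 and -0.91 for the 9393 without. On each scale a TOP start went with a median higher by less than 0.1, and no test of it was made.

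**Figure D2:**
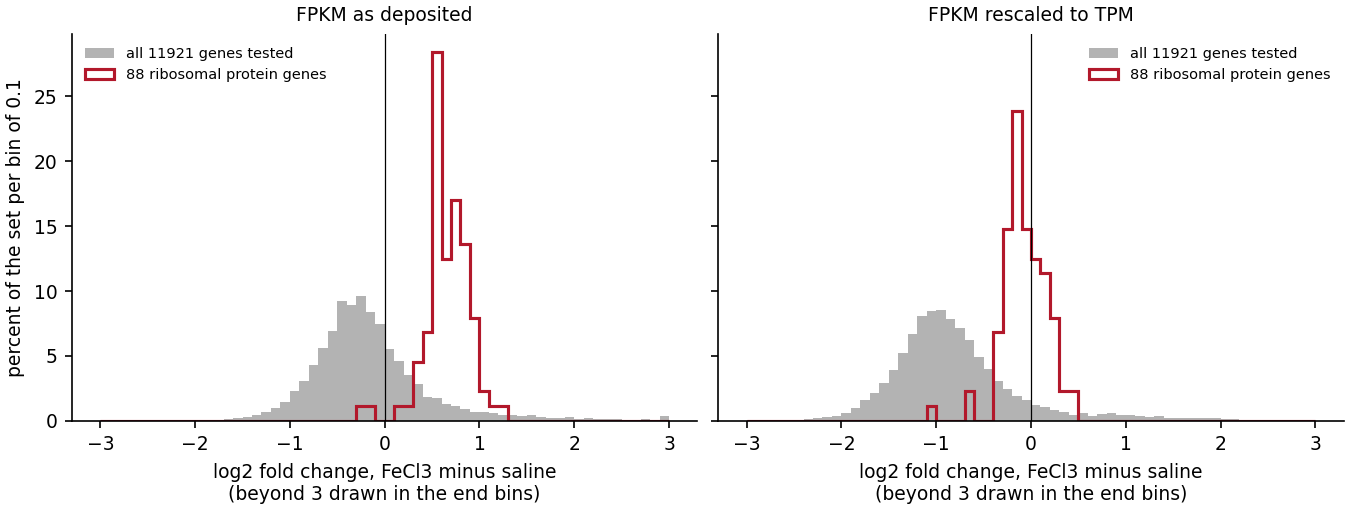
Distribution of log2 fold changes (FeCl3 minus saline) for the 88 tested ribosomal protein genes (red outline) and all 11921 genes tested (grey), in percent of each set per bin of 0.1, from FPKM as deposited (left) and from FPKM rescaled to TPM (right). The members' median is 0.65 on the left and -0.089 on the right, where its sign flips, while the median of all genes goes from -0.25 to -0.90.

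At an unadjusted p under 0.05 in limma, 25 of 88 members had higher values after FeCl3, against a background of 4.42% of all genes, and 0 had lower values, against 12.2%. With TPM, 0 had higher values, against 1.88%, and 1 lower, against 48.4%. In 19 members all 4 FeCl3 values exceeded all 4 saline values, against a background of 1.06%, and in 0 members all lay below, against 8.75%. Among the 19 are Rpl5, Rpl7, Rpl10, Rpl13, Rpl13a, Rpl21, Rpl23a, Rpl26 and Rpl36a of the large subunit, the row named Rpl37, and Rps3a, Rps4x, Rps7, Rps12, Rps15, Rps24 and Rps27 of the small subunit. They are named for this separation, so it is no further evidence about any of them, and with TPM it held for 0 members, against 0.0755% of all genes. These counts leaned on single libraries. At an unadjusted p under 0.05 and higher, there were 6 members without saline replicate 1 (background 2.3%), 6 without saline replicate 3 (2.46%), 6 without FeCl3 replicate 4 (2.66%), 8 without FeCl3 replicate 2 (3.59%) and 15 without saline replicate 4 (6.23%), while leaving out FeCl3 replicate 3 gave 42 (4.09%). Members with all FeCl3 values above all saline values numbered 53 without saline replicate 2 (background 2.3%), 33 without FeCl3 replicate 3 (2.46%) and 29 without FeCl3 replicate 1 (1.65%). The counts also differed between scalings. At an unadjusted p under 0.05 and higher, median-of-ratios scaling had 74 (background 9.08%), haemoglobin left out of the total 82 (8.9%), quantile normalization 37 (8.3%) and haemoglobin as a covariate 1 (0.0923%). Without overlap, the first 3 had 62 (4.29%), 68 (4.19%) and 28 (3.64%). In each of these 4 fits 0 members passed an adjusted p of 0.05 in limma.

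The order of the libraries was much the same from member to member. FeCl3 replicate 2 was the highest library for 76 of the 88 tested members and FeCl3 replicate 4 for 9. Saline replicate 1 was the lowest for 46 and saline replicate 3 for 34. The same counts over all tested genes are not given here, so this order is no comparison with other genes. Across all tested members the geometric mean FPKM was 375, 737, 358 and 560.3 in FeCl3 replicates 1 to 4 and 249, 403, 268 and 321 in saline replicates 1 to 4.

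**Figure D3:**
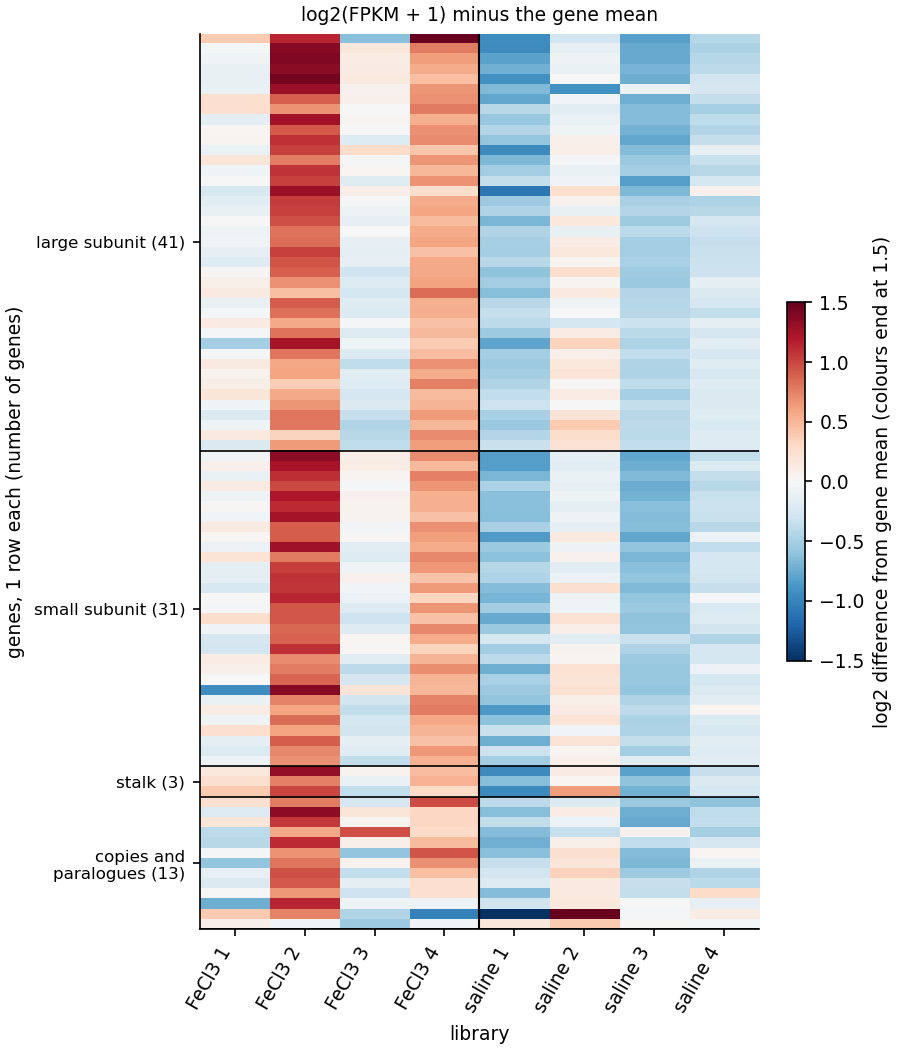
Level of each of the 88 tested members in each library, as log2(FPKM + 1) minus the gene's mean over 8 libraries (red above, blue below, colours ending at 1.5), 1 row per gene, in blocks for the large subunit, the small subunit, the stalk, and copies and paralogues, each sorted from the highest log2 fold change down. FeCl3 replicates 2 and 4 are red and saline replicates 1 and 3 blue down nearly the whole height, while FeCl3 replicates 1 and 3 stay near 0; on the TPM scale most of the group difference is absent, with 32 of 88 positive.

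Large subunit genes gave 41 of 41 positive log2 fold changes with FPKM and 15 of 41 with TPM, with medians of 0.62 and -0.11. Their FPKM log2 fold changes ran from 0.34 for Rpl27 to 1.23 for Rpl17. At an unadjusted p under 0.05 in limma, 12 were higher with FPKM (background 4.42%) and 0 with TPM (background 1.88%). Values are listed for replicates 1 to 4, and where no group is named, the FeCl3 group comes first.

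Rpl36a, a protein near the exit site for spent transfer RNA, had the smallest p of all members. Its FPKM was 327, 853, 372 and 567 after FeCl3 and 171, 304, 196 and 238 after saline. The lowest FeCl3 value stood just above saline replicate 2, the highest of its group. The log2 fold change was 1.15 ± 0.36 (SE; adjusted p in limma = 0.248), and 0.41 with TPM. Rpl5, which binds 5S ribosomal RNA and holds back the p53 ligase Mdm2, had values of 767, 1022, 647 and 1101 FPKM after FeCl3 and 482, 577, 409 and 455 after saline. All 4 FeCl3 libraries were above all 4 saline libraries. The difference was 0.86 ± 0.28 log2 (SE; adjusted p in limma = 0.251), and 0.12 with TPM. Its partner on 5S RNA, Rpl11, had 342, 637, 327 and 540.5 FPKM and 253, 384, 249 and 281 FPKM. Here FeCl3 replicates 1 and 3 lay below saline replicate 2, and the log2 fold change was 0.62 ± 0.31 with FPKM (SE) and -0.11 with TPM.

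Rpl17, which lines the peptide exit tunnel, had the largest log2 fold change of the members. Its values were 472, 796, 232 and 1058 FPKM after FeCl3 and 188, 295, 204 and 268 after saline. FeCl3 replicate 4 was the highest, unlike most members, and FeCl3 replicate 3 lay within the saline range. The log2 fold change of 1.23 ± 0.46 (SE; adjusted p in limma = 0.264) had a wider error than that of Rpl36a.

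Rpl26, another protein at the tunnel exit, had 1064, 2916, 1194 and 1710.3 FPKM and 634, 1051, 655 and 826 FPKM. The lowest FeCl3 value exceeded the highest saline value by little, and the log2 fold change was 1.03 ± 0.39 (SE). Rpl10, which joins the large subunit last and completes the catalytic centre, had 916, 1246, 830.5 and 1141 FPKM and 642, 703, 672 and 762 FPKM. Its saline values were close together and its groups did not overlap, and the log2 fold change was 0.56 ± 0.26 (SE; adjusted p in limma = 0.314). With TPM it was -0.18. Rpl13a, which besides its place in the ribosome takes part in interferon-gated silencing of translation, had 823, 1528, 861 and 1277 FPKM and 633, 801, 659 and 700.1 FPKM, again without overlap. Its log2 fold change was 0.64 ± 0.30 (SE) with FPKM and -0.097 with TPM.

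The most abundant member was Rpl41, the smallest ribosomal protein, a short basic peptide. It had 2109, 4604, 2726 and 2996 FPKM after FeCl3 and 1159, 2408, 1438 and 2085 after saline. FeCl3 replicate 1 lay below saline replicate 2, and the log2 fold change was 0.81 ± 0.39 (SE; adjusted p in limma = 0.323). Rpl39, a small protein of the tunnel wall, had a mean of 739.9 ± 390.4 FPKM in the FeCl3 group and 359.5 ± 104 in the saline group (SD, n = 4 each), with a log2 fold change of 0.96 ± 0.39 (SE). Rpl3, which lies at the catalytic centre, had 603 ± 186 and 453 ± 108 FPKM (SD, n = 4 each). Its log2 fold change was 0.39 ± 0.32 (SE; adjusted p in limma = 0.538) with FPKM and -0.35 with TPM. Rpl27 had the smallest difference of the large subunit, with means of 606 ± 219.5 and 459.9 ± 92.4 FPKM (SD, n = 4 each), and 0.34 ± 0.33 log2 with FPKM (SE) against -0.40 with TPM.

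**Figure D4:**
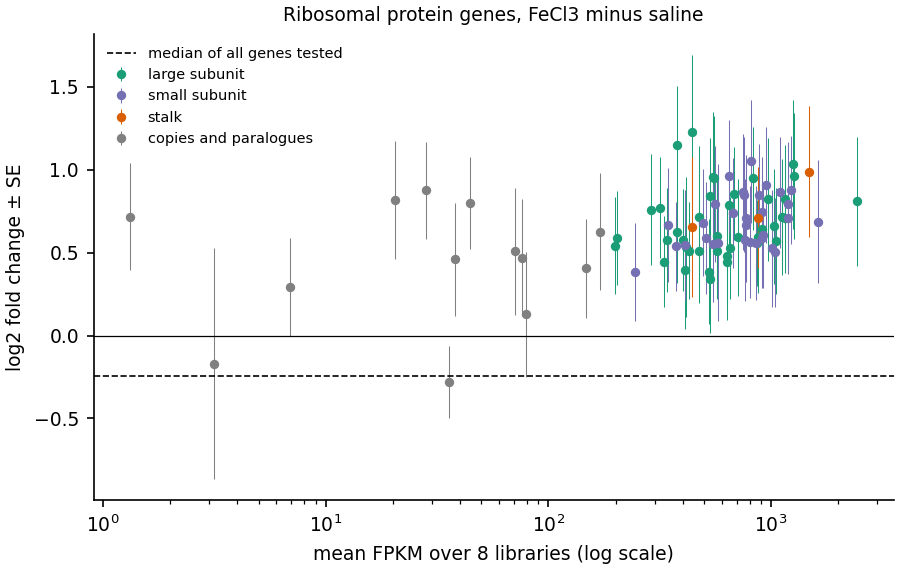
Log2 fold change (FeCl3 minus saline, log2(FPKM + 1), bars show the SE) of the 88 tested members against their mean FPKM over 8 libraries on a log axis, coloured by role. Canonical members lie between 0.34 and 1.23, above the dashed median of all genes at -0.25, and the members below 0 are Rpl7l1 and Rps4y2; with TPM 56 of the 88 lie below 0.

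Small subunit genes gave 31 of 31 positive log2 fold changes with FPKM and 12 of 31 with TPM, with medians of 0.68 and -0.055. The range with FPKM was 0.38 to 1.05. At an unadjusted p under 0.05 in limma, 8 were higher with FPKM (background 4.42%) and 0 with TPM (background 1.88%). Rps24, a protein mutated in some cases of Diamond-Blackfan anaemia, had the largest log2 fold change of the subunit. Its values were 695, 1824, 775 and 1182 FPKM after FeCl3 and 407, 658, 418 and 559 after saline. The groups did not overlap, and the log2 fold change was 1.05 ± 0.37 (SE; adjusted p in limma = 0.258), and 0.32 with TPM.

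Rps4x, the X-linked form of the Rps4 protein, had 909, 1552, 802 and 1333 FPKM after FeCl3 and 589, 747, 530.0 and 617 after saline. All FeCl3 values were above all saline values, and the log2 fold change was 0.85 ± 0.31 (SE; adjusted p in limma = 0.259). Rps27, a zinc-binding protein of the subunit, had 570.0, 1288, 604 and 984 FPKM and 468, 559.8, 407 and 523 FPKM. Its groups were separated by a narrow gap between FeCl3 replicate 1 and saline replicate 2. Rps6, the classic substrate of the S6 kinases below mTORC1, had 981, 1460.3, 741 and 1402 FPKM and 554, 895, 529 and 713 FPKM. FeCl3 replicate 3 lay within the saline range, and the log2 fold change was 0.75 ± 0.33 (SE; adjusted p in limma = 0.302).

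Rps27a, made as a fusion of ubiquitin and a ribosomal protein, did not follow the family in 1 library. It had 266, 1320.0, 583 and 718 FPKM after FeCl3 and 348, 597, 340.2 and 438 after saline, and FeCl3 replicate 1 was the lowest of all 8. Its log2 fold change was 0.56 ± 0.47 with FPKM (SE; adjusted p in limma = 0.551) and -0.18 with TPM. Fau, a fusion that carries the small subunit protein Rps30, had means of 895 ± 250.4 and 554 ± 109.7 FPKM, and Rack1, the scaffold protein on the head of the small subunit, 437 ± 112 and 293 ± 54.9 FPKM (SD, n = 4 each). Fau and Rack1 lie outside the naming rule.

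Rps29, the second most abundant member, had a mean of 2034 ± 886 FPKM in the FeCl3 group and 1214 ± 283 in the saline group (SD, n = 4 each). Rpsa, which is also known as a laminin receptor, had 1202 ± 443 and 817 ± 218 FPKM, with a log2 fold change of 0.53 ± 0.35 with FPKM (SE; adjusted p in limma = 0.457) and -0.21 with TPM. Rps14 of the subunit's platform had 1504 ± 603 and 876 ± 135 FPKM (SD, n = 4 each). Rps3, at the channel where messenger RNA enters, had 953 ± 341 and 582 ± 137 FPKM, and Rps26, at the exit channel, 966 ± 341 and 637 ± 162 FPKM (SD, n = 4 each). The log2 fold changes of Rps29, Rps14, Rps3 and Rps26 ran from 0.56 to 0.71 with FPKM and from -0.17 to -0.026 with TPM. In these 5 genes the groups overlapped. The rows named Rps9l1, Rps19l2 and Rpl35al1 carry the gene IDs that RefSeq names Rps9, Rps19 and Rpl35a, and were counted with the canonical genes. The row named Rpl37 carries an ID that RefSeq names Rpl37l1, and was counted with the copies.

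The 3 stalk proteins, which recruit and activate the factors that drive elongation, had log2 fold changes of 0.66 to 0.99 with FPKM, of which 1 was positive with TPM. Rplp0, the anchor of the stalk, had 978, 1398, 776 and 1188 FPKM after FeCl3 and 533, 847, 544 and 713 after saline. FeCl3 replicate 3 was below the highest saline value, and the log2 fold change was 0.71 ± 0.30 (SE; adjusted p in limma = 0.296), and -0.027 with TPM. Rplp1 had 1461, 3272, 1356 and 1805 FPKM and 679, 1428, 754 and 1029.7 FPKM, with FeCl3 replicate 3 again just inside the saline range. Its log2 fold change was 0.99 ± 0.40 (SE; adjusted p in limma = 0.279), and 0.25 with TPM. Rplp2 had 527, 803, 309 and 489 FPKM and 206, 617, 245 and 332 FPKM. Saline replicate 2 exceeded every FeCl3 library but replicate 2, and the log2 fold change was 0.66 ± 0.42 (SE; adjusted p in limma = 0.442).

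Among the 21 copies and paralogues, 13 were tested, 11 had positive log2 fold changes with FPKM and 4 with TPM, and the medians were 0.47 and -0.26. Rpl7l1, a relative of Rpl7, had 37.2, 34.1, 23.8 and 34.2 FPKM after FeCl3 and 39.8, 46.7, 35.7 and 34.4 after saline. FeCl3 replicate 3 was the lowest and the groups overlapped, and the log2 fold change was -0.28 ± 0.22 (SE; adjusted p in limma = 0.515). With TPM it was -1.01 and was the member that passed, with an adjusted p of 0.0491 in limma, against a background of 27% of all genes lower on that scale, and with haemoglobin left out of the total it was 0.03. Rps4y2 had 3.26, 4.42, 1.37 and 0.605 FPKM after FeCl3 and 0.0707, 10.8, 2.17 and 2.50 after saline, so the saline group held both the lowest and the highest value. Rps12l2 and Rps15al4, the other members at low levels, had means of 1.92 ± 1.07 and 0.711 ± 0.385 FPKM and of 7.70 ± 2.48 and 6.12 ± 2.05 FPKM (SD, n = 4 each), with at most 44 fragments in any library for Rps12l2.

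The remaining 8 copies stayed below the filter on low values and were not tested. Rpl3l, the striated muscle form of Rpl3, was at 0.169 to 0.547 FPKM after FeCl3 and 0 to 0.462 after saline. Rpl10l, a testis form of Rpl10, was at 0.279 to 0.586 and 0.151 to 1.51 FPKM. Rpl39l, a testis form of Rpl39, was listed at 0 in all libraries but FeCl3 replicate 4, at 0.0742 FPKM. The recovery took this value as 1 fragment, the fewest possible. Rpl22l2, Rpl31l2, Rps12l3, Rps15al2 and Rps19l1 were at 0 to 1.18 FPKM after FeCl3 and 0 to 0.785 after saline. By mean FPKM the muscle and testis forms were at most 0.116% of their ubiquitous partners in either group.

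The ratio of a paralogue to its ubiquitous gene within a library does not change with the scaling of that library. Of 7 pairs of well-known paralogues picked for this comparison, 3 had both genes above the filter on low values. The ratio of Rpl36al to Rpl36a was 0.371, 0.314, 0.343 and 0.298 after FeCl3 and 0.718, 0.514, 0.568 and 0.446 after saline. Every FeCl3 ratio was below every saline ratio, and the log2 ratio differed by -0.74 (means -1.60 ± 0.14 and -0.85 ± 0.29, SD, n = 4 each). An exact two-sided permutation test gave p = 0.0286, the smallest that 4 against 4 allow, and p = 0.0429 after Benjamini-Hochberg adjustment over the 3 pairs. Over all 12 copies and paralogues with a measured partner, an adjustment added after the data were seen, the adjusted p was 0.114, so the call rests on the choice of pairs. The ratio of Rps27l, an Rps27 paralogue known as a p53 target, to Rps27 was 0.0777, 0.129, 0.117 and 0.0714 after FeCl3 and 0.129, 0.148, 0.184 and 0.130 after saline. The highest FeCl3 ratio and the lowest saline ratio were almost equal, and FeCl3 replicates 1 and 4 stood lowest. The log2 ratio differed by -0.61 (means -3.39 ± 0.42 and -2.77 ± 0.24, SD, n = 4 each; exact permutation p = 0.0286, adjusted p = 0.0429 over the 3 pairs and 0.114 over the 12).

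The ratio of Rpl22l1 to Rpl22 was 0.271, 0.298, 0.340 and 0.313 after FeCl3 and 0.295, 0.374, 0.398 and 0.357 after saline, with overlap. Its log2 difference was -0.22 (exact permutation p = 0.143, adjusted p = 0.143). Among the 9 further pairs, Rpl7l1 over Rpl7 was also without overlap, at 0.0337, 0.0166, 0.0219 and 0.0197 after FeCl3 and 0.0502, 0.0450, 0.0538 and 0.0434 after saline, a log2 difference of -1.11 (exact permutation p = 0.0286, adjusted p = 0.114 over the 12). The other 8 had exact permutation p-values of 0.114 to 0.743. With any 1 library left out the smallest p that the test can give is 0.0571, so these calls cannot be checked that way; the log2 differences then ran from -0.85 to -0.62 for the Rpl36a pair and from -0.76 to -0.47 for the Rps27 pair. On the FPKM scale Rps27l had a mean of 87.7 ± 53.5 FPKM in the FeCl3 group and 71.5 ± 9.66 in the saline group, and Rpl36al 171 ± 67.6 and 124 ± 22.5 FPKM (SD, n = 4 each). With TPM the log2 fold changes were -0.60 for Rps27l and -0.33 for Rpl36al, against 0.0031 for Rps27 and 0.41 for Rpl36a. Paralogues this similar can share reads, and how the authors' counting treated reads that match both is not given in the sources used here.

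**Figure D5:**
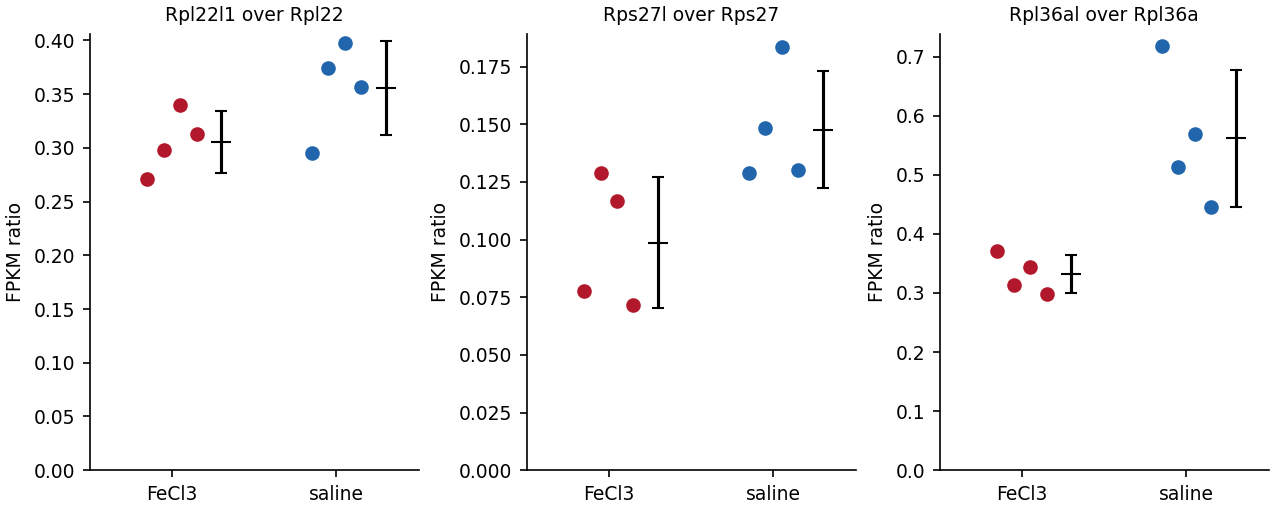
Ratio of paralogue to ubiquitous gene in FPKM for 3 pairs, 1 point per library (red FeCl3, blue saline), with the mean and SD of each group (n = 4). The Rpl36al ratios lie at 0.298 to 0.371 after FeCl3 and 0.446 to 0.718 after saline, the Rps27l ratios nearly touch at 0.129, and the Rpl22l1 ratios overlap.

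Within a library, members kept close to the family. Each member was divided by the geometric mean of all tested members in that library, and the SD of the log2 of this quantity over 8 libraries had a median of 0.17. Without the division the members' log2 FPKM had a median SD of 0.54, and all tested genes 0.59. Over the 75 canonical members, 99.7% of gene and library values lay within 2-fold of the gene's usual place in the family. The divisor was the members' own mean, and no other set of genes was measured in this way. The 0.17 and the 99.7% therefore describe the members and are no comparison with other genes. The exceptions were Rpl17, at 2.36 times its usual place in FeCl3 replicate 4, and Rpl30, at 0.487 times in saline replicate 2, with Rps27a next at 0.513 times in FeCl3 replicate 1. Copies and paralogues departed further: Rps4y2 was at 0.0415 times in saline replicate 1, 0.158 times in FeCl3 replicate 4 and 3.93 times in saline replicate 2, Rps12l2 at 4.01 times in FeCl3 replicate 3 and 2.09 times in saline replicate 3, and Rpl7l1 at 0.448 times in FeCl3 replicate 2. Rpl30 was chosen after its values were seen. With all genes rescaled by the family's mean, 0 of 88 members passed in limma at an adjusted p of 0.05 and 2 were at an unadjusted p under 0.05, Rpl36a with 0.48 (background 1.3% higher) and Rpl7l1 with -0.93 on the log2 scale (background 45.6% lower).

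Translation genes outside the family were described from lists. With FPKM none of their genes passed an adjusted p of 0.05 in limma. With TPM, where 27% of all genes passed as lower, up to 9 genes of a list did. For every list the background over all genes with FPKM was 29.8% positive. At an unadjusted p under 0.05 in limma the background was 4.42% higher and 12.2% lower. Other messages known to carry a TOP start had 17 of 18 positive log2 fold changes with FPKM and 3 of 18 with TPM, with medians of 0.37 and -0.36, and 3 were at an unadjusted p under 0.05, all higher with FPKM. The largest difference among them was in Tpt1, the translationally controlled tumour protein, with 4655, 5279.7, 4439 and 5095 FPKM after FeCl3 and 1387, 2500.5, 1164 and 2777 after saline. Its groups were far apart, and the log2 fold change was 1.41 ± 0.39 with FPKM (SE; adjusted p in limma = 0.245) and 0.67 with TPM. Pabpc1, which binds poly(A) tails, had 284 ± 61.6 and 153 ± 83.5 FPKM (SD, n = 4 each) and 1.02 ± 0.40 log2 (SE).

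Elongation factors had 6 of 9 positive log2 fold changes with FPKM and 0 of 9 with TPM, with medians of 0.21 and -0.53, and 1, Eef2k, was at an unadjusted p under 0.05. Eef1a1, which brings transfer RNA to the ribosome, had 2492 ± 635 and 1732 ± 256 FPKM, and Eef1b2, its exchange factor, 213 ± 80.8 and 154 ± 30.0 FPKM (SD, n = 4 each). Eef2k, the kinase that shuts elongation down, had 25.4, 19.6, 23.4 and 23.8 FPKM after FeCl3 and 111, 20.1, 63.8 and 38.6 after saline, with saline values spread over a wide range and saline replicate 2 within the FeCl3 range. Initiation factors had 11 of 28 positive and a median of -0.17, with 2 higher and 2 lower at an unadjusted p under 0.05, and 19 of 28 were positive with haemoglobin left out of the total. Eif4g1, the scaffold of the cap-binding complex, had 24.0, 22.9, 18.02 and 27.0 FPKM and 45.5, 56.9, 52.3 and 35.4 FPKM, every FeCl3 value below every saline value, with -1.01 ± 0.23 log2 (SE; adjusted p in limma = 0.245). Eif3m went the other way without overlap, at 147 ± 30.6 and 89.5 ± 10.6 FPKM (SD, n = 4 each), with 0.69 ± 0.23 log2 (SE) with FPKM and -0.043 with TPM.

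Ribosome biogenesis factors, which build the subunits in the nucleolus, had 11 of 46 positive with a median of -0.17 with FPKM. With TPM it was 0 of 46, and with haemoglobin left out of the total 29 of 46. Of all 11921 genes, 29.8% were positive with FPKM, with a median of -0.25, and 6108 were positive with haemoglobin left out. The background at an unadjusted p under 0.05 in limma was 4.42% higher and 12.2% lower. At an unadjusted p under 0.05 in limma, 0 were higher and 3 lower, the assembly factors Grwd1 (5.04 ± 1.17 and 7.74 ± 0.619 FPKM), Lsg1 (2.51 ± 0.907 and 4.29 ± 0.848 FPKM) and Bysl (6.29 ± 1.06 and 9.85 ± 2.24 FPKM; SD, n = 4 each). Genes of TOP and mTORC1 control had 3 of 20 positive with a median of -0.37, and 8 of 20 positive with haemoglobin left out of the total. With FPKM, 5 were lower and 0 higher at an unadjusted p under 0.05 in limma (background 12.2% and 4.42%). Larp1, the TOP-binding repressor, had 14.7, 7.69, 8.51 and 13.9 FPKM after FeCl3 and 20.5, 25.6, 25.3 and 15.9 after saline, without overlap, and -0.93 ± 0.28 log2 (SE; adjusted p in limma = 0.245). Tsc2, an inhibitor of mTORC1, had 3.57 ± 0.525 and 6.60 ± 1.25 FPKM, and Rheb, an activator of it, 51.6 ± 6.77 and 92.0 ± 24.6 FPKM (SD, n = 4 each). Ribosome rescue and turnover genes had 1 of 14 positive with a median of -0.42, and 4 of 14 positive with haemoglobin left out of the total. With FPKM, 5 were lower and 1 higher at an unadjusted p under 0.05 in limma (background 12.2% and 4.42%). Those with the smallest p were Map3k20, the kinase that senses stalled ribosomes (16.5 ± 2.52 and 33.4 ± 11.6 FPKM), Usp10 (5.10 ± 1.42 and 9.22 ± 2.10 FPKM) and Ltn1 (6.73 ± 1.60 and 10.8 ± 1.59 FPKM; SD, n = 4 each). The last 2 act on ubiquitin at stalled ribosomes.

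The proteins of the mitochondrial ribosome, which come from the nucleus like those of the cytosolic one, were compared in the same libraries. Of 77 tested, 31 had a positive log2 fold change with FPKM, against a background of 29.8% of all genes, and the median was -0.073. At an unadjusted p under 0.05 in limma there were 0, against 4.42% higher and 12.2% lower. With TPM 0 of 77 were positive. On that scale 14 were lower at an unadjusted p under 0.05, against 48.4% of all genes. Of these, 2 passed an adjusted p of 0.05, against 27% of all genes. With haemoglobin left out of the total 60 of 77 were positive, and with median-of-ratios scaling 55. Relative to the median of all genes this was 0.17, against 0.90 for the cytosolic members, with TPM 0.12 against 0.82, and with haemoglobin as a covariate 0.66 against 0.99. A test of the difference between the 2 families was not made.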

How the data were processed

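RNA of rat abdominal aorta was measured in 8 libraries, 4 per group. The deposited values are FPKM computed by the authors, and per the submitters' processing notes they used fastp, HISAT2 and HTSeq with the build mRatBN7.2. Versions, the annotation and the handling of reads that match several genes are not given in the sources used here. Columns were matched to samples by title, with 0 value columns left unmapped.

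Genes at 1 FPKM or more in at least 4 of 8 libraries entered a two-sided test of log2(FPKM + 1) with the trend option of limma 3.58.1, run under R 4.3.3, with Benjamini-Hochberg adjustment over 11921 genes and a threshold of 0.05. A log2 fold change on this scale understates the change of low genes. Library totals and gene lengths were recovered from the steps of low FPKM values, which gave whole fragments for 100% of 18090 genes within a tolerance of 0.02 and at least 99.96% of each total; the count of 2 genes, Hbb and Pkm, was doubled to reach it. Recovered fragments served for shares and for a limma voom fit, an alternative reported beside the main one. The scripts were tested on simulated data. At most 0.477% of genes had equal fragments in any of 28 pairs of libraries, so none was counted as a duplicate. Paralogue ratios were tested by exact permutation with scipy 1.17.1.

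Members and lists were chosen with earlier results of these data known. Genes are named by a rule: a set of well-known members, the 5 largest and 5 smallest log2 fold changes, the 3 smallest p-values, the 3 highest and 3 lowest levels, members below the filter, and up to 3 genes per list with the smallest p. Some genes that the rule names are not reported here. Other scalings, pseudocounts, filters, fits and the leaving out of libraries were tried as alternatives.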

Additional observations from a re-analysis of the deposited data

Results flagged for a closer look

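Of 124 groups of 4 libraries examined for a value far from the other 3, 1 stood out: Rpl39l, the testis form of Rpl39, at 0.0742 FPKM in FeCl3 replicate 4 and listed at 0 in the other 3 FeCl3 libraries. The recovery of fragments gives 1 fragment to any gene above 0 in only 1 library, so the true count is not known. Not every value reported here was among the groups examined. Others also stood far from the rest of their group. In FeCl3 replicate 2, Rpl22l2 was at 0.662 FPKM against 0.0855 to 0.0880, and Rps12l3 at 1.18 against 0.0718 to 0.222. The haemoglobin share of saline replicate 4 was 16.5% against 1.30 to 1.63%. Chance alone marks about 5% of groups by the rule used where values vary continuously. With 3 libraries at 0 any value above 0 is marked, so that rate does not apply to Rpl39l.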

How the results depend on the processing

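The members' median log2 fold change was positive under the pseudocounts 0.1 and 0.01, both filters, median-of-ratios and quantile scaling, haemoglobin left out or as a covariate, and every library left out in turn (0.46 to 0.80), and was -0.089 with TPM. With TPM 1 member passed limma, lower, as 27% of all genes did (0 otherwise), 1 was at an unadjusted p under 0.05 and 1 did not overlap. At an unadjusted p under 0.05 there were 74 members with median-of-ratios scaling (62 not overlapping), 82 with haemoglobin left out (68 not overlapping), 39 without trend (4.56% of all genes higher), 1 with haemoglobin as a covariate (0.0923%), 6 to 42 with a library left out (2.30 to 6.23%; 19 to 53 not overlapping, 1.10 to 5.66% above) and 0 without saline replicates 1 and 4 (4.26%), a choice made after seeing the data. Quantile normalization gave 37 and 28, against 25 and 19 as reported, and no filter gave 18 (3.44%). The difference in the ribosomal protein share of summed FPKM was 0.322 points, 7.02 with haemoglobin left out, and -1.13 to 1.49 with a library left out. The log2 ratios of Rps27l/Rps27 (-0.76 to -0.47) and Rpl36al/Rpl36a (-0.85 to -0.62) cannot pass with a library left out, since the smallest p is then 0.0571. Adjusted over all 12 measured pairs, an addition made after seeing the data, these ratios (-0.61 and -0.74) had an exact permutation p of 0.114 and no longer passed.

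Signs turned with TPM for Rplp0 (-0.027), Rplp2 (-0.081), Rpsa (-0.21), Rps27a (-0.18), Rps3 (-0.072), Rps14 (-0.026), Rps26 (-0.17), Rps29 (-0.052), Rpl3 (-0.35), Rpl10 (-0.18), Rpl11 (-0.11), Rpl13a (-0.10), Rpl22l1 (-0.11), Rpl36al (-0.33), Rps27l (-0.60), Rps15al4 (-0.36) and Rpl27 (-0.40). Outside the family they turned for Fau (-0.069), Rack1 (-0.18), Eef1a1 (-0.24), Eef1b2 (-0.32) and Eif3m (-0.043). TPM divides by the summed FPKM and FPKM by the library total, and haemoglobin is part of both. Which of the signs holds in the vessel was not tested. Rps4y2 turned positive with pseudocount 0.1 (0.13) and 0.01 (0.34), median-of-ratios (0.050), haemoglobin left out (0.036) or as a covariate (0.10), voom (0.47), without FeCl3 replicate 4 (0.14) and without saline replicate 2 (0.42; range with a library left out -0.73 to 0.42). Rpl7l1 turned with haemoglobin left out (0.030) or as a covariate (0.012), and Rps27l without FeCl3 replicate 2 (-0.23; range with a library left out -0.23 to 0.40) and without saline replicates 1 and 4 (-0.018); the cause was not tested.

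No paired analysis was possible because the groups share only 1 number in their sample titles. Low counts limit Rps4y2, Rps12l2 and the 8 members below the filter.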

Other observations

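The members are short genes. Their recovered lengths had a median of 679.5 bases against 2967 for all tested genes, and 86 of 88 were in the shortest quartile. That quartile reached 1780 bases, so it also held genes longer than most members. Short genes that are not members had a median log2 fold change of 0.024 in that quartile, and genes of the longest quartile -0.46, beside 0.65 for the members. Within the 75 canonical members, length went with a member's place in the family in FeCl3 replicate 2: the 19 shortest stood 0.19 above their usual place on the log2 scale and the 19 longest 0.13 below it (-0.13), and Spearman's rho over 75 genes was -0.50. In the other 7 libraries rho lay between -0.24 and 0.25. Each rho is across genes of 1 library, which share its depth and fragmentation, and no test was made. Length also went with the group difference. Over the same 75 genes, rho between length and the FPKM log2 fold change was -0.27. The median log2 fold change was 0.79 for the 19 shortest and 0.59 for the 19 longest, again without a test.

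Beyond the start itself, the 300-base RefSeq windows of members (74, against 27457 of all genes, both strands searched) held some motifs at other shares than all windows. CCGGAAG, the core bound by ETS factors, was in 28.4% against 9.22%, AAGATGGC, a YY1 core, in 9.46% against 3.44%, and GGGCGG in 52.7% against 34.9%. CTCTTTCC was in 12.2% against 3.04%, and overlaps the shorter CTTTCC, in 45.9% against 26.4%. TATAAA was in 10.8% against 14.3%. The widest ratio was that of the palindromic CGCG element, a longer motif around those letters that is bound by Banp, in 10.8% against 0.433%. A match is a run of letters in the window and says nothing of what binds there in the aorta.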
